A study of Mus musculus with 34 samples.

Results

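The 10 genes described here are named for the naive state of mouse T cells, before a T cell has met antigen. They were taken by name, from a list drawn up with earlier results of these data known: Tcf7, Lef1, Bach2, Foxo1, Foxp1, Klf2, Klf3, Satb1, Id3 and Dapl1. They are 10 of 48526 genes in the deposited table, and all 10 were among the 18292 genes with enough counts to be tested. Of the 10, 8 encode proteins that bind DNA. Id3 encodes an inhibitor that lacks a DNA-binding region, and Dapl1 is a naive T cell marker that is not a transcription factor, so the label of transcription factors does not hold for it.

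Naive T cells circulate through lymphoid organs in a resting state. TCF1, the product of Tcf7, and its relative LEF1 are HMG-box proteins that hold T cell identity and the capacity for renewal. FOXO1 drives transcription of Klf2 and of receptors for homing and survival, and it leaves the nucleus when AKT is activated downstream of the antigen receptor and CD28. KLF2 in turn drives transcription of S1pr1, the receptor that lets T cells leave lymphoid organs. BACH2 represses effector genes, and loss of these factors accompanies the passage to effector cells.

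The cells were pan T cells from the spleens of C57BL/6 mice aged 6 to 12 weeks, purified by negative selection. Their total RNA, freed of ribosomal RNA, gave 34 libraries in 13 groups. WT cells were sampled unstimulated (day 0, 2 libraries) and after culture with anti-CD3, anti-CD28 and recombinant IL-2 for 24 h (day 1, 2 libraries) or 72 h (day 3, 2 libraries). All mutant groups received the same stimulation and had libraries at both times, 3 each for DKI, Ars2 KO, CD28 Y170F and CD28 AYAA and 2 each for those labelled CD28 KO. AYAA changes the proline motif and Y170F the tyrosine motif of the tail of CD28, the costimulatory receptor. DKI is listed by the submitters among the CD28 genotypes without a definition. Ars2 is the name of the protein encoded by Srrt, which works with the nuclear cap-binding complex. How Srrt was deleted, and in which cells, is not given in the sources used here. There were no unstimulated mutant libraries. Replicates are biological per the design text, which does not say whether each came from its own mouse.

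Expression is given in CPM, a gene's counts relative to the scaled size of its library, and differences as log2 fold changes with the standard error (SE) of edgeR's quasi-likelihood fit. A gene is said to have risen or fallen where the p-value, adjusted by Benjamini-Hochberg over all 18292 genes, was under 0.05. The total count was 8.3 to 47.8 M per library. The 8 libraries under 12 M were all 6 of DKI and the WT libraries numbered 4 at days 1 and 3. The pair of WT libraries therefore differed in depth at each day, and they also differed in expression: Klf2 stood at 104 CPM in number 1 and 173 CPM in number 4 at day 1. By counts of Xist and Y-linked genes, both unstimulated libraries were from female cells and all stimulated WT and DKI libraries from male cells. Every other group held libraries of both sexes, so its comparison with stimulated WT was not balanced for sex. In CD28 AYAA and CD28 Y170F number 3 was the female library on both days, so libraries of the same number shared their sex. Srrt was at 33.5 to 64.8 CPM in Ars2 KO at day 1 against 131 to 244 CPM in WT. At day 3 it was at 105 to 146 CPM against 145 to 245 CPM, and the ranges overlapped. WT number 4 held the lower WT value of Srrt on both days. Cd28 was not lower in the libraries labelled CD28 KO at day 1 (476 to 481 CPM against 387 to 411 CPM in WT) and was lower at day 3 (212 to 214 CPM against 474 to 587 CPM), so the gene count does not check that label at day 1. A value below WT at day 3 was not particular to that label. Cd28 was then also below WT in Ars2 KO (231 to 451 CPM), DKI (270 to 304 CPM) and CD28 AYAA (283 to 323 CPM), but not in CD28 Y170F (468 to 594 CPM). Summed over 10 T cell markers, libraries held 1930 to 3330 CPM, and no marker of that list was at 0 in any group.

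The unstimulated libraries also held RNA of other cell types. Summed over 12 B cell markers they had 812 to 841 CPM, against 6.85 to 120 CPM in all stimulated libraries. Myeloid markers summed to 157 to 164 CPM against at most 28.4 CPM, and NK cell markers to 135 to 155 CPM against at most 80.4 CPM. Bach2, Foxo1, Foxp1, Klf2 and Id3 are also transcribed by B cells, and the part of this in any difference from day 0 was not tested. In such bulk samples a smaller share of cells that express a gene cannot be told apart from less RNA per cell.

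The bases before the start of 3 members are shown because Klf2 and Klf3 differed most of the members at day 1 in the libraries labelled CD28 KO, and Lef1 holds a motif of their family. They come from the RefSeq promoter table (GRCm38.p6), which holds all 10 members, and end at the base before the RefSeq or the GENCODE start, whichever comes first, so that no base of the gene's own transcript is shown. On the opposite strand, Gm43352 overlaps Lef1 and Gm20033 overlaps Klf3. Capitals mark CCACCC, the core of the site that KLF proteins bind.
Lef1 (chr3:131110047-131110296, plus strand, 5′ to 3′): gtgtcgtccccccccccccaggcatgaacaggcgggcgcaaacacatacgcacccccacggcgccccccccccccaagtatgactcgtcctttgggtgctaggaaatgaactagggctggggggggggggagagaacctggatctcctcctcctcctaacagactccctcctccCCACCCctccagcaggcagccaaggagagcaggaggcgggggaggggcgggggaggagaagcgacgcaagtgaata
Klf2 (chr8:72318812-72319032, plus strand, 5′ to 3′): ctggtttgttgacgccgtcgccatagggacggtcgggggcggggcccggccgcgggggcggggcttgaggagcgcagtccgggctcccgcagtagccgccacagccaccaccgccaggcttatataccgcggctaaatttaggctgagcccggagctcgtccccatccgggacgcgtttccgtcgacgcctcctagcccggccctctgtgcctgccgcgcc
Klf3 (chr5:64803271-64803387, plus strand, 5′ to 3′): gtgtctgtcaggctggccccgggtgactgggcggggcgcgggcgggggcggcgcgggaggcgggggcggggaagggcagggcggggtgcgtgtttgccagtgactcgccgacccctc

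The full 250 bases before the most upstream RefSeq start of each gene were read on both strands. CCACCC was present in 5 of the 10 members (Lef1, Foxp1, Klf2, Klf3 and Id3) and in 27.6% of 27025 RefSeq promoters. Of these matches only that of Lef1 lies before the GENCODE start of its gene. Those of Klf2 and Klf3 lie in bases not printed. The windows of Bach2, Foxp1 and Id3 lie wholly inside their GENCODE genes. The E-box CAGNTG was in 2 members (Tcf7 and Foxp1) and in 44.5% of promoters, and the NFAT core TGGAAA was in 2 members (Foxo1 and Foxp1) and in 18.7%. The TCF and LEF core CTTTGA was in Bach2 alone, against 14.1%, and the forkhead core TGTTTAC in Dapl1 alone, against 3.06%. The BACH core TGANTCA was in none of the 10, against 6.85% of promoters. Such matches describe the letters of these windows and show no binding.

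Levels differed widely among the 10 genes. Per kb of exon, unstimulated WT cells held 132 CPM of Tcf7, 62.5 CPM of Klf2, 58.7 CPM of Dapl1, 32.1 CPM of Lef1, 31.5 CPM of Satb1 and 8.83 CPM of Bach2. The ratio of the highest to the lowest group mean over the 13 groups was 6.04 for Klf2, 5.84 for Klf3, 5.81 for Dapl1, 5.8 for Id3 and 4.95 for Bach2. It was 3.67 for Tcf7, 3.53 for Lef1, 2.07 for Satb1, 1.94 for Foxo1 and 1.78 for Foxp1. Thus the KLF genes, Id3 and Dapl1 ranged most, and the forkhead genes least. For 5 members (Lef1, Foxp1, Klf2, Klf3 and Satb1) the highest mean was that of the libraries labelled CD28 KO at day 1. Unstimulated WT had the highest mean only for Id3 and Dapl1. It had the lowest mean for Bach2 (87.7 CPM), Foxo1 (146 CPM) and Satb1 (600 CPM), despite the naive name of the set.

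**Figure D1:**
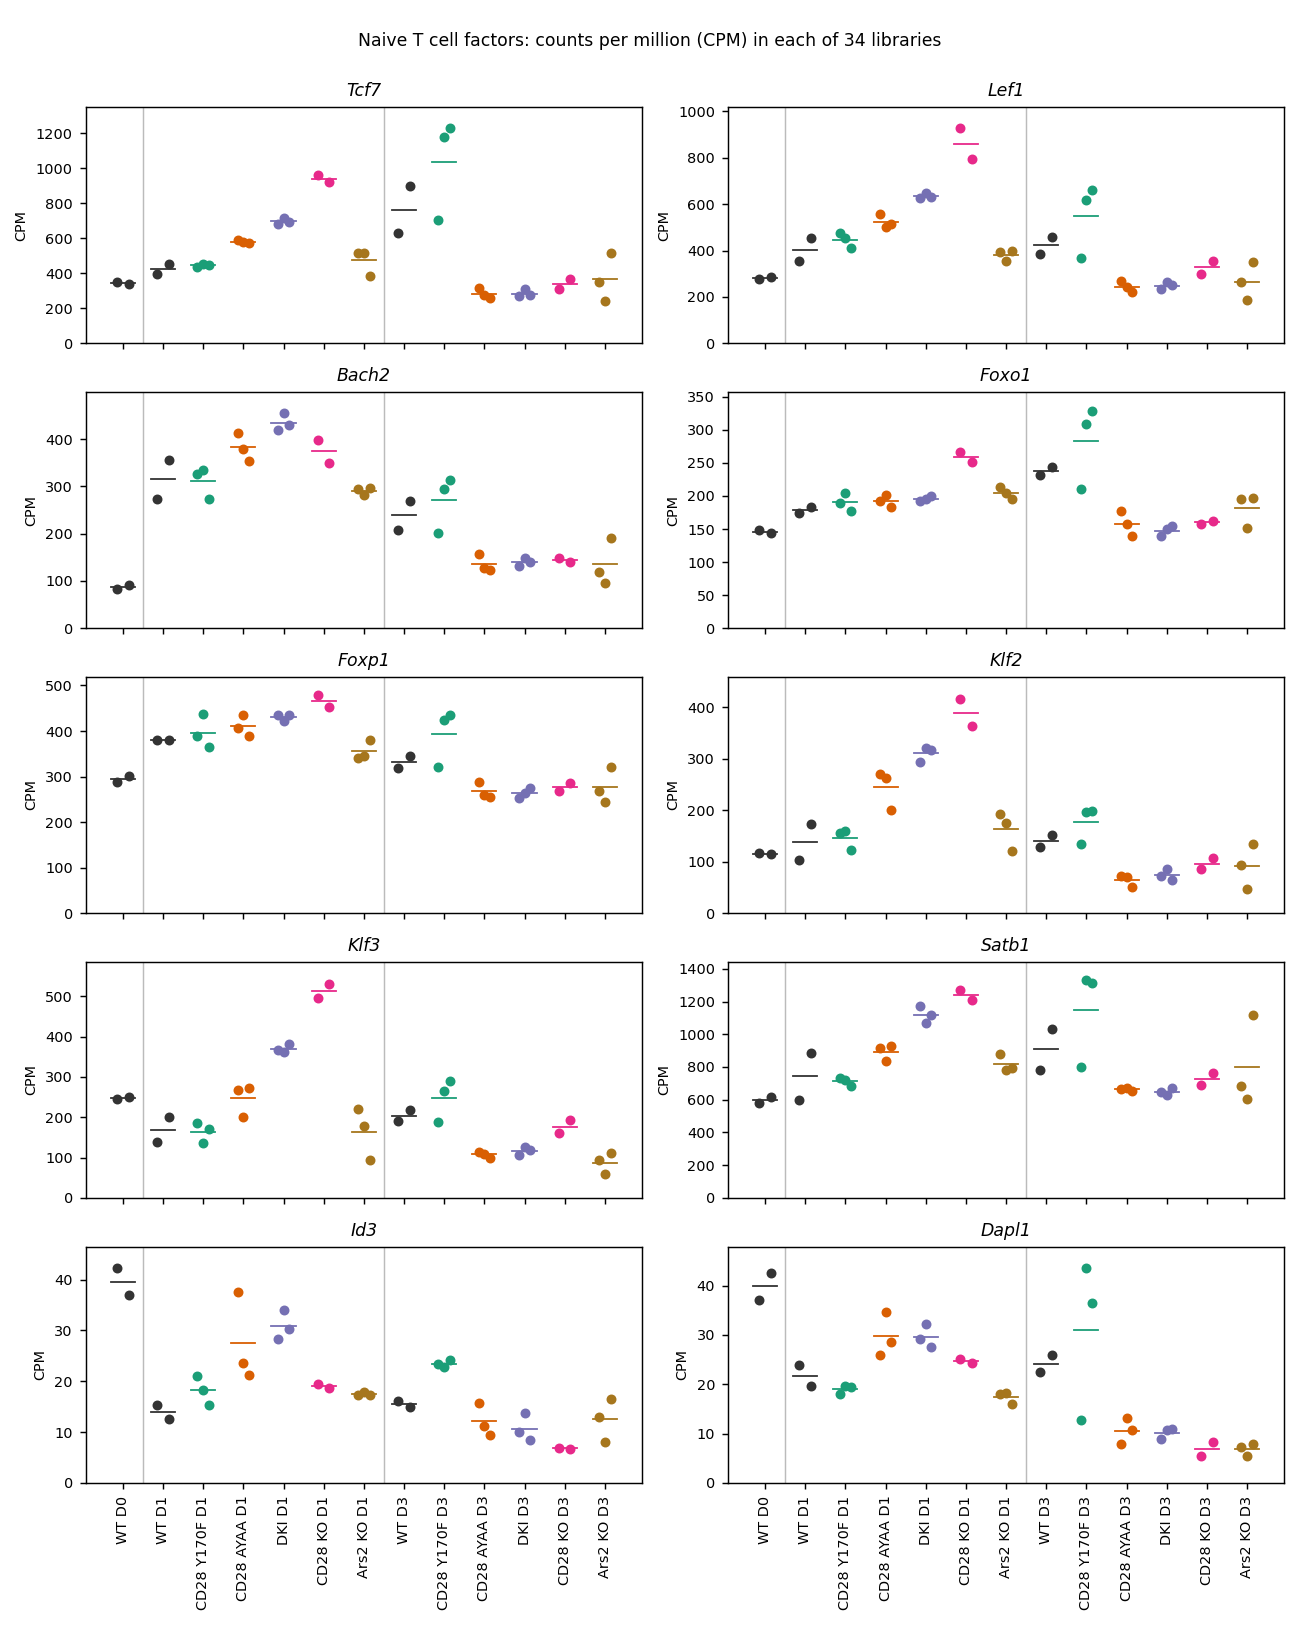
Expression in CPM of each of the 10 genes (1 panel each) in each of 34 libraries, ordered by group. Points are libraries, short lines are group means, and grey lines separate days 0, 1 and 3. Klf2 runs from 47.7 to 417 CPM over the libraries, and Foxp1 from 244 to 480 CPM.

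Placed in order of level, neighbouring groups mostly overlapped. Of the 12 neighbouring pairs of groups, 3 or 4 had library ranges that did not overlap, depending on the gene. For Tcf7 the order ran from CD28 Y170F at day 3 (mean 1040 CPM), the libraries labelled CD28 KO at day 1 (942 CPM), WT at day 3 (764 CPM) and DKI at day 1 (697 CPM) down to CD28 AYAA at day 3 (283 CPM). Unstimulated WT (346 CPM) stood at the tenth place of 13, next to Ars2 KO at day 3 (369 CPM) and the libraries labelled CD28 KO at day 3 (339 CPM), and its range overlapped both. For Klf2 the order ran from the libraries labelled CD28 KO (390 CPM), DKI (311 CPM) and CD28 AYAA (244 CPM), all at day 1, down to CD28 AYAA at day 3 (64.6 CPM). Those 3 highest groups did not overlap each other. Id3 and Dapl1 were highest in unstimulated WT, at 39.6 and 39.9 CPM, and lowest in the libraries labelled CD28 KO at day 3, at 6.83 and 6.87 CPM.

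The comparison of stimulated with unstimulated WT cells asked how these genes responded to activation with CD28 intact. At day 1, 3 of the 10 rose and 2 fell, where 51.3% of all genes tested changed, 24.2% upward and 27.2% downward. Bach2 stood at 83.6 and 91.9 CPM in unstimulated cells, 274 and 356 CPM at day 1 and 208 and 269 CPM at day 3. All stimulated libraries were above the unstimulated ones, by 1.84 on the log2 scale at day 1 (adjusted p = 1.8e-07, SE 0.22) and 1.44 at day 3 (adjusted p = 4.6e-06, SE 0.22). Lef1 rose by 0.52 (SE 0.21) and Foxp1, a forkhead repressor that helps keep naive cells quiet, by 0.37 (SE 0.12). Lef1 no longer passed with limma-voom (adjusted p = 0.054), DESeq2 (adjusted p = 0.059) or without either unstimulated library or WT number 4 at day 1. Foxp1 no longer passed without unstimulated WT number 1 or WT number 1 at day 1.

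Id3, whose product blocks E proteins, stood at 42.3 and 36.9 CPM at day 0, 15.3 and 12.6 CPM at day 1 and 16.1 and 15.0 CPM at day 3. It fell at day 1 (log2 fold change -1.49, adjusted p = 4.3e-05, SE 0.26) and at day 3 (-1.34, adjusted p = 1.4e-04, SE 0.26), with no overlap. Dapl1 fell at day 1 (-0.87, SE 0.31), a call lost without unstimulated WT number 2 or WT number 4 at day 1. At day 3 it was at -0.73 (edgeR adjusted p = 0.053), and it passed under 6 alternatives, with DESeq2 (adjusted p = 0.04) and limma-voom (adjusted p = 0.049) among them. Klf2 had log2 fold changes of 0.26 (SE 0.3) and 0.28 (SE 0.3), and Klf3, a repressor of the same family, -0.55 (SE 0.28) and -0.28 (SE 0.28), none of which passed. Klf3 at day 1 did pass in edgeR without the filter on low counts (adjusted p = 0.023), with depth as a term (adjusted p = 0.045) and with only the compared groups (adjusted p = 0.034). Without either unstimulated library 3 members were called at day 1, and Bach2 and Id3 passed with any library left out.

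At day 3, 5 members were above unstimulated WT and 1 below, where 50.5% of all genes changed, 23.5% upward and 27.0% downward. Tcf7 stood at 350 and 342 CPM at day 0, 397 and 456 CPM at day 1 and 630 and 899 CPM at day 3. Its log2 fold change against day 0 was 1.14 (adjusted p = 2.4e-04, SE 0.24), and all day 3 libraries were above all earlier ones. Foxo1 rose by 0.71 (SE 0.14), Satb1, an organiser of chromatin loops in T cells, by 0.6 (SE 0.21) and Lef1 by 0.58 (SE 0.21). Satb1 and Lef1 no longer passed with depth as a term, or without either unstimulated library or WT number 4 at day 3. Between days 1 and 3, where 29.5% of all genes changed and 15.5% rose, Tcf7 rose by 0.84 (adjusted p = 0.0076, SE 0.24) and Foxo1 by 0.42 (adjusted p = 0.025, SE 0.14). Without WT number 1 at day 1 or number 4 at day 3 no member was called, and without number 4 at day 1 or number 1 at day 3, 1 was.

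Lists of related genes were read beside the members on activation of WT cells, with no test between lists. Of 10 naive homing and survival receptors, known as targets of KLF2, FOXO1 or TCF1, none rose and 4 fell at day 1 (24.2% of all genes rose and 27.2% fell), among them S1pr1 (-1.62, SE 0.32), S1pr4 (-1.2, SE 0.24) and the integrin Itgb7 (-1.27, SE 0.2). The list's median was -0.2 against -0.02 over all genes tested and 0.29 over the 10 members. Of 15 quiescence genes, which restrain growth and division, none rose and 8 fell (median -0.55), among them Btg2 (-1.68, SE 0.29) and Vsir (-1.33, SE 0.16). Of 12 effector transcription factors 6 rose and 4 fell, with Irf4, a factor induced by antigen receptor signals, at 3.8 (SE 0.29) and Runx3 at 1.74 (SE 0.1). At day 3, 2 homing receptors fell and none rose (median -0.54), and 5 quiescence genes fell and 3 rose (median -0.15).

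At day 1 after stimulation, the question was how the CD28 alleles and loss of Ars2 altered these genes against stimulated WT cells. All 5 comparisons of a day share the same 2 WT libraries. In the libraries labelled CD28 KO, 6 of 10 members rose and none fell, where 43.3% of all genes changed, 18.6% upward and 24.7% downward. The members' median log2 fold change was 0.64, against 0.02 over all genes.

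Klf3 stood at 496 and 531 CPM in the libraries labelled CD28 KO against 138 and 200 CPM in WT, a log2 fold change of 1.6 (adjusted p = 6.1e-05, SE 0.28). Klf2 stood at 417 and 363 CPM against 104 and 173 CPM, a log2 fold change of 1.5 (adjusted p = 3.3e-04, SE 0.31). Tcf7 stood at 960 and 924 CPM against 397 and 456 CPM, a log2 fold change of 1.14 (adjusted p = 3.4e-04, SE 0.24). For each gene both libraries were above all WT libraries of days 0 and 1. Lef1 rose by 1.09 (SE 0.21), Satb1 by 0.74 (SE 0.21) and Foxo1 by 0.54 (SE 0.14). Foxp1, Id3, Bach2 and Dapl1 had values of 0.29, 0.44, 0.25 and 0.18, which did not pass. The result for Foxp1 turned on the method. It did pass with DESeq2 (adjusted p = 0.036) and limma-voom (adjusted p = 0.049), with RLE size factors and among protein-coding genes only. Satb1 no longer passed without WT number 1.

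B cell markers summed to 84 to 119 CPM in these 2 libraries against 10.2 to 25.4 CPM in WT at day 1, and 7 of the 12 markers rose, none of them at 0 in either group. Their part in the members' values was not tested.

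DKI gave the same number of calls at day 1, with 6 of 10 members risen and none fallen, where 26.0% of all genes changed, 10.3% upward and 15.8% downward (median of members 0.62, of all genes 0.0). Klf2 stood at 294, 321 and 317 CPM (log2 fold change 1.17, adjusted p = 0.0046, SE 0.29) and Klf3 at 367, 362 and 381 CPM (1.13, adjusted p = 0.0029, SE 0.26). Id3 stood at 28.4, 34.0 and 30.2 CPM against 15.3 and 12.6 CPM in WT (1.13, adjusted p = 0.0021, SE 0.25). Every DKI library was above both WT libraries for all 10 members, as for 25.8% of all genes. Tcf7 rose by 0.71 (SE 0.22), Lef1 by 0.65 (SE 0.2) and Satb1 by 0.59 (SE 0.2). Without WT number 1 only Id3 passed, and with depth as a term 2 members did. No B cell marker rose in DKI (sums of 9.61 to 12.1 CPM, with Fcrla at 0). Of 10 T cell markers 4 rose and none fell, with sums of 2600 to 2740 CPM against 2320 to 2420 CPM in WT, and their part was not tested.

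In CD28 AYAA at day 1 only Id3 passed, where 3.6% of all genes changed, 1.61% upward and 1.99% downward. It stood at 37.6, 23.6 and 21.3 CPM, all above WT, by 0.97 on the log2 scale (adjusted p = 0.033, SE 0.25). All 10 members had positive values, with a median of 0.41 against 0.03 over all genes, and Klf2 at 0.82 (adjusted p = 0.094, SE 0.28) and Klf3 at 0.55 (adjusted p = 0.2, SE 0.26) did not pass. Klf2 did pass with DESeq2 (adjusted p = 0.042), and in edgeR with depth as a term (adjusted p = 0.031) or without the filter on low counts (adjusted p = 0.01). The Id3 call was lost against either WT library alone and without CD28 AYAA number 1 or number 2.

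In Ars2 KO and CD28 Y170F at day 1 no member was called by edgeR, where 0.399% of all genes (0.23% higher, 0.169% lower) and 0.0547% (0.0164% higher, 0.0383% lower) were. No member had an unadjusted p under 0.05 in either comparison, and DESeq2 and limma-voom also called none. The 95% intervals bounded how far members could differ: for Tcf7 from -0.27 to 0.57 in Ars2 KO and from -0.35 to 0.49 in CD28 Y170F, and for Klf2 from -0.3 to 0.79 and from -0.46 to 0.63. Ars2 KO libraries spread widely in Klf3, at 221, 178 and 93.4 CPM.

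**Figure D2:**
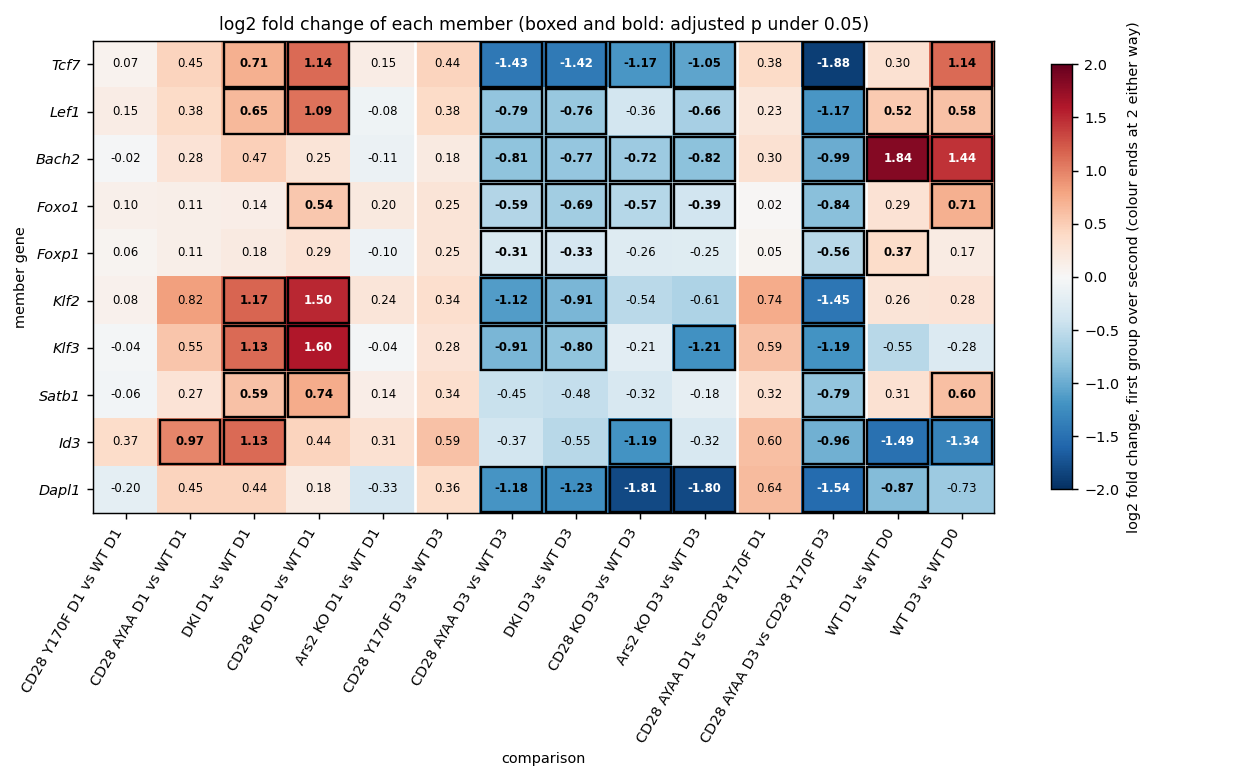
Log2 fold changes of the 10 genes (rows) in 14 comparisons (columns), coloured from lower to higher, with boxed bold values for those with an adjusted p under 0.05. Values are positive in the day 1 comparisons of DKI and of the libraries labelled CD28 KO with WT and negative in the day 3 comparisons, with Klf3 at 1.6 and -0.21 in the libraries labelled CD28 KO.

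At day 3 the same genotypes lay on the other side of WT. In CD28 AYAA, 8 of 10 members fell and none rose, where 21.7% of all genes changed, 10.4% upward and 11.3% downward (median of members -0.8, of all genes -0.01). In DKI, 8 of 10 fell and none rose, where 23.4% changed, 10.3% upward and 13.1% downward (median -0.77, of all genes -0.02). In both it was all members but Satb1 and Id3. Satb1 did pass in both without the filter on low counts and with only the compared groups in the fit. In DKI it also passed with depth as a term (log2 fold change -0.71, edgeR adjusted p = 0.011). Foxp1 in CD28 AYAA passed narrowly: it was lost under 9 alternatives, limma-voom among them (adjusted p = 0.052), and without CD28 AYAA number 2 or 3 or either WT library. In DKI it was lost without DKI number 1 or 2 or WT number 4.

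Tcf7 stood at 314, 274 and 261 CPM in CD28 AYAA and at 270, 309 and 275 CPM in DKI, against 630 and 899 CPM in WT. The log2 fold changes were -1.43 (adjusted p = 4.4e-05, SE 0.21) and -1.42 (adjusted p = 3.2e-05, SE 0.21), with no overlap. Klf2 stood at 71.5, 71.1 and 51.1 CPM in CD28 AYAA and at 72.2, 86.1 and 64.8 CPM in DKI, against 129 and 151 CPM, with log2 fold changes of -1.12 (adjusted p = 0.0048, SE 0.28) and -0.91 (adjusted p = 0.018, SE 0.28). Every mutant library was again below both WT libraries. Dapl1 fell by 1.18 on the log2 scale in CD28 AYAA (SE 0.29) and by 1.23 in DKI (SE 0.3), and Lef1, Bach2, Klf3 and Foxo1 fell by 0.59 to 0.91 in CD28 AYAA. Without WT number 4, 2 members (Tcf7 and Foxo1) passed in CD28 AYAA and 3 (Tcf7, Foxo1 and Dapl1) in DKI, and without DKI number 1, 5 passed in DKI.

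The libraries labelled CD28 KO had 5 fallen members and none risen, where 20.0% of all genes changed, 8.59% upward and 11.5% downward (median of members -0.56, of all genes 0.01). Tcf7 stood at 311 and 367 CPM (log2 fold change -1.17, adjusted p = 9.6e-04, SE 0.24), Id3 at 6.9 and 6.76 CPM against 16.1 and 15.0 CPM (-1.19, adjusted p = 0.0032, SE 0.28) and Dapl1 at 5.5 and 8.23 CPM against 22.4 and 25.9 CPM (-1.81, adjusted p = 4.1e-04, SE 0.33). None of these overlapped WT. Foxo1 (-0.57, SE 0.14) and Bach2 (-0.72, SE 0.21) also fell, and Bach2 no longer passed without WT number 4 or either library labelled CD28 KO. Klf3, at 160 and 192 CPM, overlapped WT (-0.21, SE 0.28).

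In Ars2 KO at day 3, 6 members fell and none rose, where 12.9% of all genes changed, 6.59% upward and 6.27% downward (median of members -0.63, of all genes 0.02). Dapl1 stood at 7.35, 5.46 and 7.93 CPM (log2 fold change -1.8, adjusted p = 2.8e-04, SE 0.29), Klf3 at 94.1, 58.5 and 111 CPM against 190 and 218 CPM (-1.21, adjusted p = 0.0023, SE 0.25) and Tcf7 at 351, 242 and 514 CPM (-1.05, adjusted p = 0.0018, SE 0.21). All were below WT, although number 3 stood nearest to it for each of these genes. Lef1, Bach2 and Foxo1 fell by 0.66, 0.82 and 0.39. Only Klf3 and Dapl1 passed without WT number 4, and none did in a fit to only these 2 groups.

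CD28 Y170F at day 3 had no member called by edgeR, where 0.0273% of all genes were (0.0109% higher, 0.0164% lower), and 3 with an unadjusted p under 0.05. DESeq2 and limma-voom called none. All 10 values were positive, from 0.18 for Bach2 to 0.59 for Id3, with a median of 0.34 against 0.0 over all genes. Tcf7 stood at 705, 1180 and 1230 CPM, with number 1 inside the WT range and numbers 2 and 3 above it (log2 fold change 0.44, 95% interval 0.02 to 0.87). Number 1 was the lowest of its group for 9 members, all but Id3, with Satb1 at 800, 1330 and 1310 CPM and Dapl1 at 12.8, 43.5 and 36.5 CPM. Without CD28 Y170F number 1, 5 members were higher than WT, where 1159 of all genes tested were called in either direction.

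T cell markers moved too at day 3. Of the 10, 5 fell in Ars2 KO, 8 in the libraries labelled CD28 KO, 8 in DKI (with 1 risen) and 5 in CD28 AYAA (with 1 risen), and their sums were 2190 to 2700 CPM against 2770 to 2810 CPM in WT. Of 7 NK cell markers 3, 4, 1 and 2 rose in these groups, with sums of 15.6 to 80.4 CPM against 41.9 to 42.9 CPM in WT. Of 10 myeloid markers tested in Ars2 KO 3 rose (sums of 12.6 to 24.0 CPM against 6.39 to 7.96 CPM in WT), while 1 fell in the libraries labelled CD28 KO and 2 fell in each of DKI and CD28 AYAA. Their part in the members' values was not tested.

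CD28 AYAA and CD28 Y170F change different motifs of the same receptor tail, and were compared directly, without WT. At day 1, edgeR called no member, where 4.32% of all genes were called (2.16% higher and 2.16% lower), with 4 members at an unadjusted p under 0.05. DESeq2 called 1 and limma-voom none. All values were positive, from 0.02 for Foxo1 to 0.74 for Klf2 (SE 0.25), and for 8 members every CD28 AYAA library was above every CD28 Y170F library, as for 17.4% of all genes. Libraries of the same number deviated together at day 1. With the replicate number as a block the 8 members other than Foxo1 and Foxp1 passed, all higher in CD28 AYAA, Klf2 by 0.73 and Tcf7 by 0.37. The 4.32% of all genes belongs to the fit without the block, so it is no background for that count.

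At day 3 all 10 members were lower in CD28 AYAA than in CD28 Y170F, where 36.8% of all genes differed, with 17.6% higher and 19.2% lower (median of members -1.08, of all genes -0.04). Tcf7 stood at 261 to 314 CPM against 705 to 1230 CPM (log2 fold change -1.88, adjusted p = 2.8e-07, SE 0.2). Klf2 stood at 51.1 to 71.5 CPM against 135 to 198 CPM (-1.45, adjusted p = 7.8e-05, SE 0.25), and Lef1 at 220 to 267 CPM against 366 to 662 CPM (-1.17, adjusted p = 1.5e-05, SE 0.18). The ranges did not overlap for 9 members (22.5% of all genes were lower without overlap), the exception being Dapl1, where CD28 AYAA number 2 (13.1 CPM) was above CD28 Y170F number 1 (12.8 CPM). The smallest difference was that of Foxp1 (-0.56, SE 0.1). All 10 calls held with any library left out. With the replicate number as a block, 7 held, without Foxo1 (adjusted p = 0.06), Foxp1 (0.076) and Satb1 (0.054), though numbers did not pair the libraries at day 3. In the same comparison 8 of 10 T cell markers fell and 4 of 7 NK cell markers rose, with Klrb1c at 3.76 (SE 0.56), and their part was not tested.

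DKI was also set beside the libraries labelled CD28 KO. At day 1 edgeR called Foxo1, lower in DKI, at 192, 196 and 200 CPM against 267 and 251 CPM (log2 fold change -0.4, adjusted p = 0.048, SE 0.13), where 9.04% of all genes differed, with 6.3% higher and 2.74% lower. Tcf7 and Lef1 were at -0.44 (SE 0.21 and 0.19) and Id3 at 0.7 (SE 0.24), which did not pass. The Foxo1 call was lost with any 1 of the 5 libraries left out, and limma-voom called no member. DESeq2 called 2, with Id3 higher in DKI (adjusted p = 0.042), and a fit of only these 2 groups called 7, with Id3 higher and Tcf7, Lef1, Foxo1, Klf2, Klf3 and Satb1 lower. The 9.04% of all genes belongs to the edgeR fit over all libraries, so it is no background for these counts. Of 12 B cell markers 5 were lower in DKI (sums of 9.61 to 12.1 CPM against 84 to 119 CPM), and their part in these values was not tested. At day 3 edgeR called no member (0.454% of all genes), 3 had an unadjusted p under 0.05, and DESeq2 and limma-voom called none. For Tcf7 at day 3 the 95% interval of the difference ran from -0.67 to 0.17.

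The change from day 1 to day 3 was then compared between each mutant and WT, as the difference of the 2 differences. In the libraries labelled CD28 KO and in DKI all 10 members, and in CD28 AYAA 8 of 10, went down relative to WT, where 35.3%, 32.4% and 24.4% of all genes differed and 14.7%, 14.7% and 12.1% differed downward. In Ars2 KO it was 2 of 10 (3.68% of all genes). In CD28 Y170F edgeR called no member and 0.0% of genes, no member had an unadjusted p under 0.05, DESeq2 and limma-voom called none, and all values were positive, from 0.15 to 0.56.

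Tcf7 showed the largest such difference of the members in the libraries labelled CD28 KO and in DKI, and Klf2 in CD28 AYAA. The mean of Tcf7 went from 942 CPM at day 1 to 339 CPM at day 3 in the libraries labelled CD28 KO, from 697 to 285 CPM in DKI and from 581 to 283 CPM in CD28 AYAA, but from 426 to 764 CPM in WT and from 447 to 1040 CPM in CD28 Y170F. The differences from WT were -2.32 (adjusted p = 1.2e-05, SE 0.33), -2.13 (adjusted p = 1.8e-05, SE 0.31) and -1.88 (adjusted p = 1.4e-04, SE 0.3). Klf2 gave -2.04 (SE 0.43), -2.09 (SE 0.4) and -1.94 (SE 0.4), with means that went from 390 to 96.1 CPM, from 311 to 74.3 CPM and from 244 to 64.6 CPM, while WT stood at 138 and 140 CPM. Lef1 gave -1.45 (SE 0.3), -1.42 (SE 0.28) and -1.17 (SE 0.27).

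In Ars2 KO the 2 calls were Tcf7 (-1.2, adjusted p = 0.027, SE 0.3) and Dapl1 (-1.47, adjusted p = 0.046, SE 0.41), and neither held with every library left out. The count was 7 without Ars2 KO number 3 at day 3 (1996 of all genes tested were called) and 4 without number 3 at day 1 (1284 were called). It was 1 without WT number 1 at day 3 and 0 without any 1 of the other 7 libraries. Of the calls in the libraries labelled CD28 KO 7 of 10 held so, in DKI 9 of 10 and in CD28 AYAA 6 of 8. Without a test, all day 3 libraries were below all day 1 libraries for all 10 members in the libraries labelled CD28 KO (39.7% of all genes), in DKI (30.8%) and in CD28 AYAA (32.0%), for 5 in Ars2 KO (15.1%), for 2 in WT (29.7%) and for none in CD28 Y170F (22.0%). They were above for 5 members in CD28 Y170F (22.9%) and 2 in WT (27.7%), Tcf7 and Foxo1 among both.

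**Figure D3:**
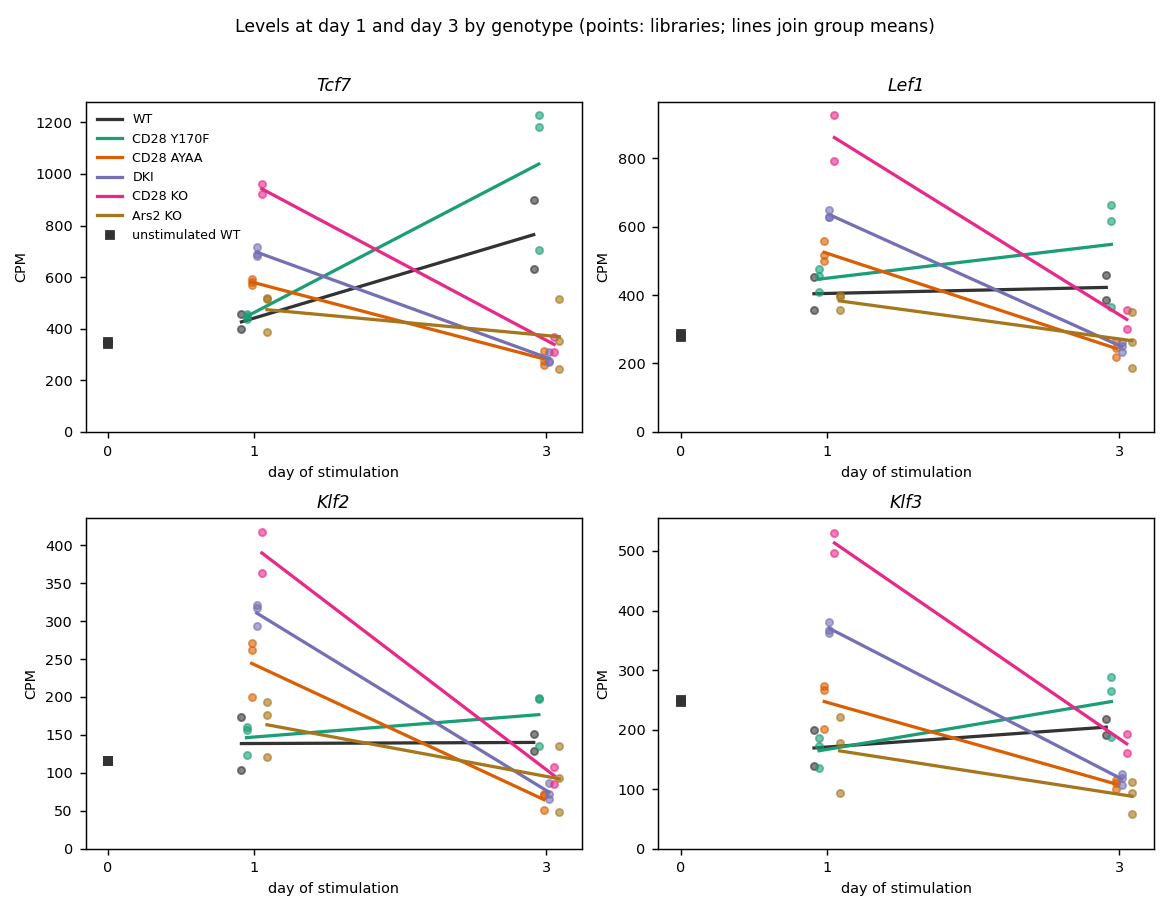
Expression in CPM of Tcf7, Lef1, Klf2 and Klf3 (panels) at days 1 and 3 by genotype, with points for libraries, lines joining group means and squares for unstimulated WT. Lines of CD28 AYAA, DKI and the libraries labelled CD28 KO slope down in every panel, and those of WT and CD28 Y170F go up for Tcf7.

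The submitters set every group against unstimulated WT, and these 12 comparisons share its 2 libraries. Bach2 rose in 12 of 12, from 0.63 in CD28 AYAA and Ars2 KO at day 3 to 2.31 in DKI at day 1. Without unstimulated WT number 1 it was not called at day 3 in Ars2 KO, DKI, CD28 AYAA or the libraries labelled CD28 KO, nor in Ars2 KO without number 3, and with depth as a term it was not called in DKI at day 3. Id3 fell in 10 of 12, to -2.53 (SE 0.27) in the libraries labelled CD28 KO at day 3, with DKI (-0.36, SE 0.23) and CD28 AYAA (-0.53, SE 0.23) at day 1 as the exceptions. In CD28 AYAA at day 1 Id3 was lower with DESeq2 (adjusted p = 0.034) and limma-voom (adjusted p = 0.013). In DKI at day 1 it was lower in a fit of only the compared groups. Dapl1 fell in 7 of 12, to -2.54 (SE 0.33) in the libraries labelled CD28 KO at day 3, and rose in none. Bach2 and Id3 thus had values of opposite sign in 12 of 12 groups, and both were called in 10 of 12.

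The other members depended on the group. Tcf7 rose in 5 of 12 (WT and CD28 Y170F at day 3, and the libraries labelled CD28 KO, DKI and CD28 AYAA at day 1) and fell in none, from -0.29 to 1.59. Lef1 rose in 7, Foxo1 in 8, Foxp1 in 7 and Satb1 in 5, and none of them fell. Klf2 rose in 3, the libraries labelled CD28 KO (1.76, SE 0.31), DKI (1.43, SE 0.29) and CD28 AYAA (1.08, SE 0.29) at day 1, and fell in 1, CD28 AYAA at day 3 (-0.84, SE 0.27). That fall was lost without CD28 AYAA number 3, and the rise in DKI with depth as a term. In DKI at day 3 Klf2 was lower with DESeq2 (-0.66, adjusted p = 0.036), and in edgeR with sex (adjusted p = 0.015) or depth as a term (adjusted p = 0.026). Klf3 rose in 1, the libraries labelled CD28 KO at day 1 (1.05, SE 0.28), and fell in 5, to -1.49 (SE 0.25) in Ars2 KO at day 3.

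By group, at day 1 the members risen and fallen against day 0 were 8 and 1 in the libraries labelled CD28 KO (52.2% of all genes changed), 7 and 0 in DKI (49.1%), 7 and 0 in CD28 AYAA (50.0%), 4 and 3 in CD28 Y170F (54.7%) and 3 and 3 in Ars2 KO (53.6%). At day 3 they were 6 and 1 in CD28 Y170F (53.8%), 2 and 3 in Ars2 KO (56.8%), 1 and 2 in the libraries labelled CD28 KO (52.1%), 1 and 3 in DKI (58.1%) and 1 and 4 in CD28 AYAA (60.2%). Without unstimulated WT number 1, 3 of the 5 calls of Ars2 KO at day 3 were made. Cell mixture and a mitochondrial ribosomal RNA share of 17.2 to 17.5% (at most 0.18% elsewhere) also set the unstimulated libraries apart, and their part cannot be told apart from stimulation. With sex as a term, Lef1 no longer passed in WT at day 1 (edgeR adjusted p = 0.11) or day 3 (adjusted p = 0.064).

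The same lists of related genes were read in the mutants. Only the homing and survival receptors were listed as known targets of members, and regulation by the members was not tested. At day 1 in the libraries labelled CD28 KO, 5 of 10 homing and survival receptors rose and 2 fell (median 0.72). S1pr1, which KLF2 activates, rose by 1.85 (SE 0.32) and S1pr4 by 1.46 (SE 0.24), while Igfbp4 fell by 2.27 on the log2 scale. Of 15 quiescence genes 10 rose and none fell (median 1.1), among them the antiproliferative Tob1 (2.07, SE 0.19), the cell cycle inhibitor Cdkn1b (1.43, SE 0.22) and Vsir (1.1, SE 0.16). Of 12 effector transcription factors none rose and 4 fell (median -1.08), among them Tbx21, which encodes T-bet, at -3.92 (SE 0.3), Irf4 at -3.87 (SE 0.29) and Bhlhe40 at -2.0 (SE 0.36).

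DKI at day 1 had 3 risen homing receptors, S1pr1 (1.29, SE 0.3), S1pr4 (1.08, SE 0.22) and the IL-7 receptor Il7r (1.18, SE 0.37), 9 risen quiescence genes and 4 fallen effector factors, with Tbx21 at -2.89 (SE 0.25). CD28 AYAA had 3 risen quiescence genes and 2 fallen effector factors, with Tbx21 at -2.1 (SE 0.24), and its homing receptors had a median of 0.3. Irf4 was higher in DKI than in the libraries labelled CD28 KO by 3.27 (adjusted p = 2.3e-08, SE 0.27). Thus DKI and the libraries labelled CD28 KO, which had the same number of members risen against WT, differed in Irf4.

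At day 3 homing receptors fell in 5 of 10 in Ars2 KO (median -0.7), 6 in the libraries labelled CD28 KO (-1.05), 8 in DKI (-0.96) and 9 in CD28 AYAA (-1.07), and none rose. Ccr7, the receptor for entry into lymph nodes, fell in each, by 0.77, 1.03, 0.87 and 0.88 on the log2 scale. Quiescence genes fell in 5, 4, 7 and 8 of 15 and rose in 0, 1, 0 and 0. Effector factors went both ways: Eomes rose by 1.71 (SE 0.37) in CD28 AYAA and 1.51 (SE 0.37) in DKI, and Gata3 was at -1.0 (SE 0.15) and -1.24 (SE 0.15). Against CD28 Y170F at day 3, CD28 AYAA had 9 of 10 homing receptors and 12 of 15 quiescence genes lower, with 1 homing receptor and no quiescence gene higher.

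**Figure D4:**
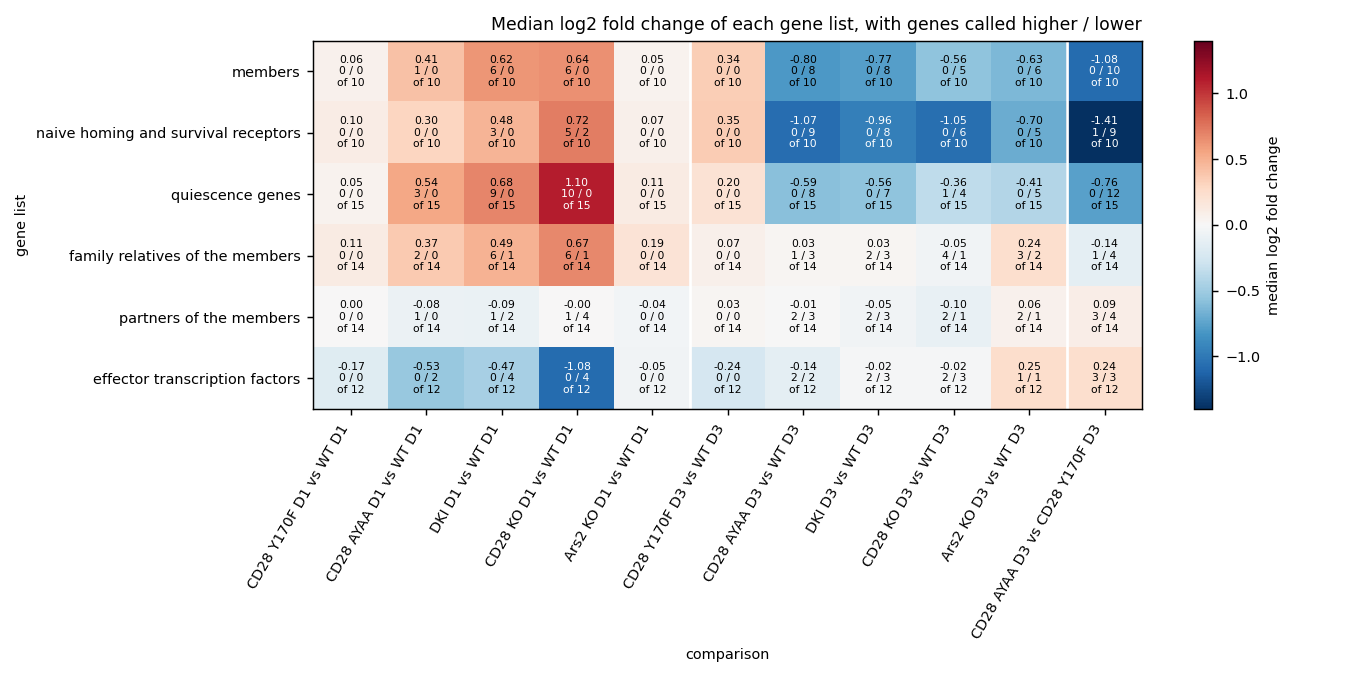
Median log2 fold change of 6 gene lists (rows) in 11 comparisons (columns), with the number of genes risen and fallen of those tested in each cell. Members, homing receptors and quiescence genes have positive medians in the libraries labelled CD28 KO at day 1 (0.64, 0.72 and 1.1) and negative ones at day 3 (-0.56, -1.05 and -0.36).

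Family relatives and partners of the members were read in the same way. Of 14 relatives tested 6 rose and 1 fell in DKI at day 1 (median 0.49) and 6 rose and 1 fell in the libraries labelled CD28 KO (median 0.67), among them Foxo4 (1.09, SE 0.11), Bach1 (1.1, SE 0.13) and Klf13 (0.89, SE 0.13). At day 3 the relatives' medians in Ars2 KO, the libraries labelled CD28 KO, DKI and CD28 AYAA were 0.24, -0.05, 0.03 and 0.03. Foxo3 fell in all 4 (by 0.6, 0.58, 0.8 and 0.66 on the log2 scale), while Id2, an inhibitor of E proteins like Id3, rose in Ars2 KO (1.76, SE 0.31), in the libraries labelled CD28 KO (1.48, SE 0.33) and in CD28 AYAA (1.24, SE 0.31). Id2 stood at a mean of 98.0 CPM in DKI (SD 8.52, n = 3), near the 102 CPM of CD28 AYAA (SD 17.8, n = 3). Of 14 partners tested, 1 rose and 4 fell in the libraries labelled CD28 KO at day 1, and their medians at day 3 lay between -0.1 and 0.06.

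The 10 genes varied together across groups. Over the 12 stimulated groups the Pearson correlation of log2 CPM means was 0.57 to 0.97 for the 45 pairs of members (median 0.83), and over all 13 groups 0.27 to 0.96 (median 0.73). The groups share a mouse strain, a stimulation and the scaling, so these values describe the pattern and no p is given. Patterns were searched among 9280 genes with a mean log2 CPM of at least 3, from which the members were then set aside. Over 13 groups the pattern most like that of Tcf7 was Nrip1 (0.97), then Cmah (0.97) and Fam117b (0.96). For Klf2 it was Tent5c (0.99), for Klf3 Scml4 (0.99), for Lef1 Vamp4 (0.98), for Bach2 Clint1 (0.98), for Satb1 Akap13 (0.98), for Foxp1 Faah (0.97) and for Foxo1 Prpf18 (0.94). Cd5, a brake on antigen receptor signalling, was nearest to Id3 (0.94) and among the 3 nearest to Dapl1 (0.95).

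All members are protein coding. On GRCm38 (GENCODE M21) they lie on 8 chromosomes. Tcf7 (ENSMUSG00000000782.15) at chr11:52252371-52283014, Lef1 (ENSMUSG00000027985.14) at chr3:131110471-131224356, Klf2 (ENSMUSG00000055148.7) at chr8:72319033-72321656 and Klf3 (ENSMUSG00000029178.14) at chr5:64803388-64832901 are those on which the results turn most. Other annotated genes overlap 7 of the 10, all but Klf2, Id3 and Dapl1. The antisense gene A630014C17Rik had a mean of 152 counts per library against 11000 for Tcf7, and Bach2os 114 against 5050 for Bach2. The library kit keeps strand, but the strand setting of the counting is not given in the sources used here, so reads of such pairs may be shared. Larger overlaps lie on the same strand, where strand does not separate reads. C230085N15Rik (1980 counts) and Gm36931 (1910) overlap Satb1 (17600), and Gm20696 (1340) overlaps Foxp1 (7380). The part of these genes in the members' counts was not tested.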

How the data were processed

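Total RNA of 34 libraries in 13 groups was measured. The deposited table gives expected counts per gene from the authors (STAR and RSEM, mm10 or GRCm38, per the submitters' processing notes; their roles, strand setting and annotation are not given in the sources used here). Of values per library, 83.7 to 90.8% were whole, and all were rounded. IDs were matched to GENCODE M21 (48144 of 48526 genes, 99.2%), and 71 genes that share a symbol keep their ID. Columns of libraries labelled CD28 KO at day 3 carry numbers that differ from the titles, so they were assigned by group only.

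Genes with enough counts (filterByExpr, 18292) were fitted with edgeR 4.0.16 in R 4.3.3, with TMM scaling and 1 mean per group over all libraries. Quasi-likelihood F tests gave p-values with Benjamini-Hochberg adjustment over all genes, and SE is the log2 fold change divided by the root of F. The fit was tested on simulated data. Totals of 8.3 to 47.8 M limit the precision of low genes: the lowest count of any member was 87, for Dapl1. CPM uses TMM library sizes, except marker sums, which use total counts.

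Members and lists were chosen with earlier results of these data known. Named genes are the 10 members, up to 3 called genes with the smallest p per list and comparison, and the 3 genes most alike in pattern per member. The alternatives were RLE, DESeq2 1.42.0, limma-voom (limma 3.58.1), no filter, protein-coding genes, depth, sex or replicate number as a term, fewer groups, 1 WT library, and each library left out. Whether replicate numbers pair libraries was checked by the correlation of deviations from group means. It was 0.37, 0.37 and 0.65 for CD28 AYAA with CD28 Y170F at day 1 and 0.41, 0.16 and 0.55 between days of CD28 AYAA, which counts as paired, and in other groups of 3 at least 1 pair was under or at 0.1. The reading rests on these values, not on the labels.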

Additional observations from a re-analysis of the deposited data

Results flagged for a closer look

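The change of a member from day 1 to day 3 differed from that in WT in 30 tests of the interaction (edgeR, adjusted p under 0.05), all downward on the log2 scale. In the libraries labelled CD28 KO the differences were -2.32 for Tcf7, -2.04 for Klf2, -1.99 for Dapl1, -1.82 for Klf3, -1.63 for Id3, -1.45 for Lef1, -1.11 for Foxo1, -1.06 for Satb1, -0.97 for Bach2 and -0.55 for Foxp1. In DKI they were -2.13 for Tcf7, -2.09 for Klf2, -1.93 for Klf3, -1.68 for Id3, -1.67 for Dapl1, -1.42 for Lef1, -1.23 for Bach2, -1.08 for Satb1, -0.83 for Foxo1 and -0.51 for Foxp1. In CD28 AYAA they were -1.94 for Klf2, -1.88 for Tcf7, -1.62 for Dapl1, -1.46 for Klf3, -1.34 for Id3, -1.17 for Lef1, -1.09 for Bach2 and -0.7 for Foxo1. In Ars2 KO they were -1.47 for Dapl1 and -1.2 for Tcf7. All these comparisons share the WT libraries of both days.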

How the results depend on the processing

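No member that was called changed sign under any alternative. RLE size factors left 312 of 320 values on the same side of the threshold, limma-voom 312, sex as a term 311, protein-coding genes only 311, DESeq2 306, no filter 294, depth as a term 293 and a fit limited to the compared groups 261. The counts of members called moved as follows, and the cause was not tested. Percentages of all genes changed given above belong to the edgeR fit over all libraries, not to these counts. With depth as a term they were 2 in DKI at day 1, 2 in CD28 AYAA at day 1, 3 in Ars2 KO at day 3, 5 in CD28 AYAA at day 3, 0 in DKI against the libraries labelled CD28 KO at day 1 and 3 in DKI at day 1 against day 0. With only the compared groups in the fit they were 0 for WT between days, 0 in CD28 AYAA at day 1, 0 in Ars2 KO at day 3, 0 for the day change of Ars2 KO, 7 and 3 in DKI against the libraries labelled CD28 KO at days 1 and 3, 5 in CD28 AYAA against CD28 Y170F at day 1, and against day 0 at day 3, 3 in Ars2 KO, 6 in the libraries labelled CD28 KO and 8 in DKI. Against the WT library of like depth they were 1 in DKI at day 1, 0 in CD28 AYAA at day 1, 2 in each of Ars2 KO and CD28 AYAA at day 3, and for the day change 0 in Ars2 KO and 5 in CD28 AYAA. Against the other WT library, chosen after seeing the data, they were 0 in CD28 AYAA at day 1, 3 in DKI at day 3 and 0 for the day change of Ars2 KO. Without the filter they were 2 in CD28 AYAA at day 1, 3 in DKI against the libraries labelled CD28 KO and 2 in CD28 AYAA against CD28 Y170F at day 1, and 4 for the day change of Ars2 KO. DESeq2 gave 2, 2, 1 and 4 in these, limma-voom 0 in DKI against the libraries labelled CD28 KO at day 1 and 1 for the day change of Ars2 KO, and sex as a term 1 for the latter. With the replicate block they were 6 in DKI against the libraries labelled CD28 KO at day 1 (1 higher, 5 lower, 2 pairs only), 8 in CD28 AYAA against CD28 Y170F at day 1 and 0 for the day change of Ars2 KO, whose numbers do not pair. At day 3 the block gave 7 of 10 for CD28 AYAA against CD28 Y170F, and it changed no other count. No paired analysis was possible because mutants share fewer than 2 numbers with WT of the same day. With each library left out the counts ran from 3 to 4 for WT at day 1 against day 0, 0 to 1 for WT between days, 1 to 6 in DKI and 0 to 1 in CD28 AYAA at day 1, 2 to 9 in Ars2 KO, 3 to 9 in DKI, 2 to 8 in CD28 AYAA and 0 to 5 in CD28 Y170F at day 3, 0 to 0 in DKI against the libraries labelled CD28 KO at day 1, 0 to 7 for the day change of Ars2 KO, and 3 to 6 in Ars2 KO at day 3 against day 0.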
